A study of Mus musculus with 8 samples.

Results

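Open chromatin was examined at the loci of 9 genes whose products drive epithelial-mesenchymal transition (EMT): *Zeb1*, *Zeb2*, *Snai1*, *Snai2*, *Twist1*, *Twist2*, *Prrx1*, *Hmga2* and *Foxc2*. A locus was the annotated span of the gene with 50 kb on each side, and its members were the FAIRE-seq peaks that overlapped it. FAIRE-seq recovers DNA that formaldehyde has not fixed to protein, so that peaks mark accessible chromatin. The 8 peak lists held 129466 peaks, which merged into 37230 regions. Of these, 40 regions lay in the 9 loci. The libraries came from EpH4 cells, a mouse mammary gland epithelial line without active H-Ras, and from EpRas cells, its derivative that expresses active H-Ras. Each line was left untreated or was given TGF-β3 at 1 ng/ml for 8 days, with 2 replicates in each of the 4 groups. The lines were grown in different amounts of serum, so an effect of H-Ras and one of serum cannot be told apart. The study describes the replicates as biological. The cells carried the mammary epithelial label, and a peak within 2 kb of a start of the gene (a promoter peak) was present in at least 1 library for 5 of 6 epithelial marker genes (*Cdh1*, *Krt8*, *Krt18*, *Cldn4* and *Cldn7*, with none at *Epcam*). The *Cdh1* promoter, which drives E-cadherin, was called in 4 of 4 EpH4 and 0 of 4 EpRas libraries. Promoter peaks were found for 3 of 5 mesenchymal, 1 of 4 immune and 0 of 3 endothelial markers, and for 42.5% of all protein-coding genes. The immune gene was *Csf1r*, called in 2 libraries.

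The Snail proteins (from *Snai1* and *Snai2*) and the Zeb proteins (from *Zeb1* and *Zeb2*) are zinc finger repressors that bind E-box sequences, among others in the *Cdh1* promoter. *Twist1* and *Twist2* encode basic helix-loop-helix factors, *Prrx1* a homeobox factor, *Hmga2* a chromatin protein with AT-hooks and *Foxc2* a forkhead factor. Several of these factors can lower junction genes or favour a migratory state in epithelial cells. TGF-β signalling through Smad proteins is known to induce several of these genes. An accessible site near such a gene can be an enhancer, a promoter or a site of another gene.

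The sequences below are the middle of the accessible regions on which the results turn: the *Snai1* promoter and the highest ranked *Snai1* region, the regions that separated treatments (*Snai1* +5.3 kb) or lines (*Hmga2* intron), the highest ranked *Zeb2* region, and the regions called in both libraries of 1 group and in no other (*Zeb2* +140.1 kb, *Foxc2* +32.2 kb). Distances run from the start of the gene in the direction of transcription. The bases are the plus strand of GRCm38.p6, up to 300 around the midpoint, and the promoter was ended before the annotated start. Capitals mark a match to TGANTCA (bound by AP1 factors), CCGGAA (ETS), TGTGGTT (RUNX) or CACCTG (the E-box of the Snail and Zeb families) on either strand, where N is any base. No motif of the 4 holds another.
*Snai1* promoter, chr2:167537919-167538194: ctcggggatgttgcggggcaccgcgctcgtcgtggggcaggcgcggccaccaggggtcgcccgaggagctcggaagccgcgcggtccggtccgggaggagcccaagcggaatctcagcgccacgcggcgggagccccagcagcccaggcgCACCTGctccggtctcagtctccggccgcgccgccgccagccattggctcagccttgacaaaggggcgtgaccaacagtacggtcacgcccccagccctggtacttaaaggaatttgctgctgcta
*Snai1* +5.3 kb, chr2:167543325-167543624: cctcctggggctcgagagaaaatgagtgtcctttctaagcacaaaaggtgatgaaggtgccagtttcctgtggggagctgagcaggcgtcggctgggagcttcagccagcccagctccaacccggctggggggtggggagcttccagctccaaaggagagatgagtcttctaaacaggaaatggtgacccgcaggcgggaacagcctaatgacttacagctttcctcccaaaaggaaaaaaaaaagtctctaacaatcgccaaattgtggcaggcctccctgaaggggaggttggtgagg
*Snai1* +36.8 kb, chr2:167574863-167575162: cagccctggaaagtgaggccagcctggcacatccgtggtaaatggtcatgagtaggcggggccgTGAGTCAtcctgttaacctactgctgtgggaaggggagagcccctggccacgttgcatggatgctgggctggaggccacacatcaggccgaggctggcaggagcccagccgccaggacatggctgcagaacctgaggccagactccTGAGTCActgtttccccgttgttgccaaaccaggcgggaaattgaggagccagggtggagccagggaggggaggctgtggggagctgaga
*Zeb2* intron, chr2:45019630-45019929: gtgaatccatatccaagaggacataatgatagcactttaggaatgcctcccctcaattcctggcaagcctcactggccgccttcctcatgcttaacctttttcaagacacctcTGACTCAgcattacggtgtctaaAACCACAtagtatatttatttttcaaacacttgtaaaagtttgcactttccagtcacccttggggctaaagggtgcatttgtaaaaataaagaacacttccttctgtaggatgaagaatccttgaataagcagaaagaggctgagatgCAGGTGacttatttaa
*Zeb2* +140.1 kb, chr2:44977175-44977474: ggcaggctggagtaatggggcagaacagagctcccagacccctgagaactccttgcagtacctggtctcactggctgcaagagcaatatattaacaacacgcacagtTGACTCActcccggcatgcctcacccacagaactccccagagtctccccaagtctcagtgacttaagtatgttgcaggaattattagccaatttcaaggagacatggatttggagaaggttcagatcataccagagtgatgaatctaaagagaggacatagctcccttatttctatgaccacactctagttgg
*Hmga2* intron, chr10:120422056-120422355: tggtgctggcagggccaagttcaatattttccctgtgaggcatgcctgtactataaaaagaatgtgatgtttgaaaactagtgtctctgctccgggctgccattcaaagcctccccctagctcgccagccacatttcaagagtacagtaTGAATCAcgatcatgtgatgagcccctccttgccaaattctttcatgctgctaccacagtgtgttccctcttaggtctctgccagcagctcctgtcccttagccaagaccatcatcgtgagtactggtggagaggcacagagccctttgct
*Foxc2* +32.2 kb, chr8:121148245-121148544: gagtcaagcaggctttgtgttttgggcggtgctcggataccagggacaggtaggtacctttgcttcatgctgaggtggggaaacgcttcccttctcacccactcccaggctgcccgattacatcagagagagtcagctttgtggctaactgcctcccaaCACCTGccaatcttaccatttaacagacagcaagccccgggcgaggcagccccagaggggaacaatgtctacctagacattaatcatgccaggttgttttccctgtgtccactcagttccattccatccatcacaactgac
The *Snai1* promoter held the E-box, as did *Foxc2* +32.2 kb, and the *Zeb2* intron held an E-box, a RUNX and an AP1 match. *Snai1* +36.8 kb held 2 AP1 matches, *Zeb2* +140.1 kb and the *Hmga2* intron 1 each, and *Snai1* +5.3 kb none of the 4 motifs. The AP1 sequence was present in 5 of the 6 *Zeb2* regions. Over the 40 regions, AP1 matched in 17 (42.5%, against 41.5% of all regions), the E-box in 13 (32.5% against 18.4%), ETS in 2 (5% against 11.5%) and RUNX in 2 (5% against 11.5%). In windows of 500 bp the E-box matched in 13 regions again, against 29.1% of all regions, so the gap seen at 300 bp depended on the window. A match describes the letters in the window and is no evidence of binding.

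The loci differed widely in how many accessible regions they held. *Snai1* held 14 regions, *Zeb2* and *Foxc2* 6 each, *Prrx1* and *Hmga2* 4 each, *Twist2* 3, *Zeb1* 2, *Snai2* 1 and *Twist1* 0. Per 100 kb of locus this was 13.4 regions at *Snai1*, 5.84 at *Foxc2*, 2.57 at *Zeb2*, 2.37 at *Prrx1*, 2.05 at *Twist2*, 1.86 at *Hmga2*, 0.966 at *Snai2* and 0.705 at *Zeb1*. The median of the 9 loci was 2.05 per 100 kb, against 2.24 over all 21951 protein-coding loci, of which 19.1% held none. The dense loci also held other protein-coding genes, namely *Rnf114* and *Spata2* near *Snai1*, and *Foxf1*, *Foxl1*, *Gm20388* and *Mthfsd* near *Foxc2*. At the limit of 50 kb, a *Prrx1* region 48.6 kb from the gene (called in 2 libraries) and a *Snai1* region 47.6 kb from it (8 libraries) were the outermost inside, and a *Snai1* region at 52.2 kb (8 libraries) and an *Hmga2* region at 52.3 kb (2 libraries) were just outside.

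Most regions lay away from the promoters of these genes. Of the 40, 17 were downstream of the gene, 4 upstream, 8 in an intron, 0 in an exon, 9 within 2 kb of a start of another gene and 2 at the gene's own promoter. Of the peaks in the loci, 48.5% ± 3.30 (SD, n = 8 libraries) fell in the flanks, 23.3% ± 2.83 in gene bodies, 22.8% ± 4.22 at promoters of other genes and 5.43% ± 2.38 at own promoters. Of all peaks of a list, 33.2% to 42.3% lay at promoters of any gene. The flank share ran from 44.4% to 53.8% over the libraries.

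The only promoter of the 9 that was accessible throughout was that of *Snai1*, called in 8 of 8 libraries. The *Hmga2* promoter was called in EpH4 untreated 1 alone, at percentile 42.5, and the other 7 promoters in 0 of 8. Over all protein-coding genes, 10.6% had a promoter peak in 8 libraries and 57.5% in none. With the comprehensive annotation in place of the basic set, an alternative start brought 1 *Zeb1* region, 3.29 kb from the start used here and called in EpRas TGF-β 1 alone, into the class of own promoters. Among 12 other EMT-promoting factors, 2 promoters (*Tcf3*, *Foxc1*) were called in all 8 libraries and 5 in none. Among 10 factors that keep cells epithelial, 0 were called in all 8 and 2 in none. In 5 of these 10 more EpH4 than EpRas libraries had the call (7.02% of all protein-coding genes) and in 3 of 10 fewer did (20.4%). The promoters of *Grhl2* and *Ovol1* were called in 3 of 4 EpH4 libraries each and those of *Ovol2* and *Esrp1* in 2 of 4. All 4 were called in 0 of 4 EpRas libraries. Calls in 2 or more EpH4 and 0 EpRas libraries held for 0.966% of all protein-coding genes. The *Elf3* promoter was called in 4 of 4 EpH4 and 3 of 4 EpRas libraries. In the other direction, the promoter of *Gata3*, a luminal mammary factor, was called in 1 of 4 EpH4 and 4 of 4 EpRas libraries, that of *Klf5* in 3 of 4 and 4 of 4, and that of *Klf4* in 0 of 4 and 1 of 4. These lists were chosen with earlier results of the same data known, so the counts are a description.

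**Figure D1:**
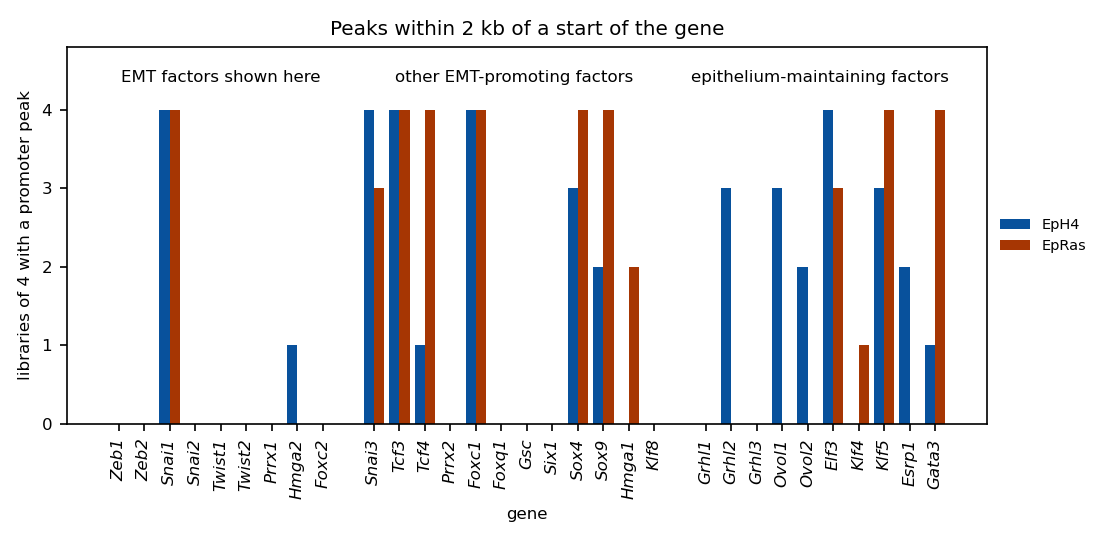
The bars give, for each gene, the number of EpH4 (blue) and EpRas (brown) libraries, of 4 each, with a peak within 2 kb of a start of the gene. Among the 9 EMT factors *Snai1* reached 4 of 4 in both lines and *Hmga2* 1 in EpH4, and the other 7 genes have no bar.

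Of the 40 regions, 9 were called in all 8 libraries (22.5%, against 11.4% of all regions), 6 in 7 (15% against 6.8%) and 12 in 1 library only (30% against 31.6%). In between, 5 were called in 2 libraries (12.5% against 16.7%), 3 in 3 (7.5% against 11.3%), 1 in 4 (2.5% against 9.01%), 2 in 5 (5% against 6.8%) and 2 in 6 (5% against 6.4%). The 9 shared regions were 6 at *Snai1*, 2 at *Foxc2* and 1 at *Hmga2*. The 2 replicates of a group shared between 54.2% (EpH4 untreated) and 76% (EpRas untreated) of the regions that either called, while the same share over all regions was between 46.6% and 52.9%. Each region was given the percentile of its highest score in the list of each library (the share of peaks with a score at or below it), and 0 where it was not called. A region without a call may be accessible and below the calling limit of the authors.

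**Figure D2:**
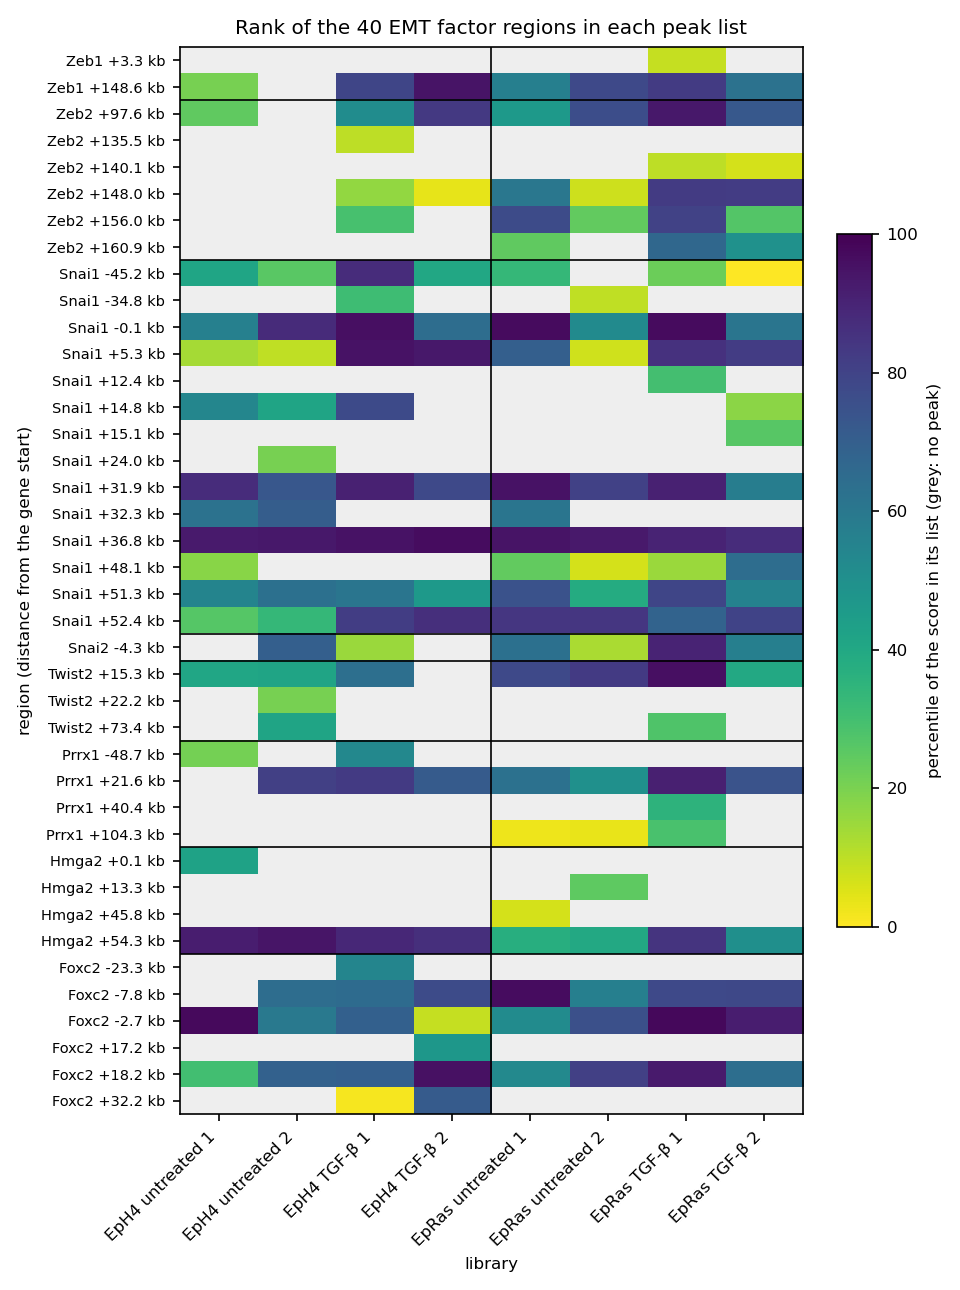
Each row is 1 of the 40 regions, labelled by gene and distance from its start in kb, each column a library, and the colour the percentile of its score in that list (grey where no peak was called). The row of *Snai1* +36.8 kb is dark in all 8 libraries, and the row of *Zeb2* +140.1 kb is coloured in the 2 EpRas TGF-β libraries only.

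At *Snai1*, which encodes Snail, the number of peaks was 10, 10, 9 and 7 in the EpH4 libraries (untreated 1 and 2, then TGF-β 1 and 2) and 9, 8, 9 and 10 in the EpRas libraries in the same order. Since the lists differed in length, from 10821 to 27337 peaks, loci were compared by peaks per 10000 peaks of the list. On that scale *Snai1* held 6.79 ± 1.35 (SD, n = 4) in EpH4 and 5.07 ± 1.22 in EpRas, a difference of -1.72 that did not pass the exact permutation test (p = 0.143, adjusted p = 0.428). The values of the lines overlapped, and with numbers of peaks not divided by list length the difference was 0. The region at +36.8 kb (chr2:167574801-167575224, downstream of the gene) had the highest mean rank of all 40, with percentiles of 92.9, 93.4, 95.1 and 96.7 in EpH4 and 94.7, 93.1, 89.9 and 87.1 in EpRas. It thus ranked at percentile 87.1 or higher in every list. The promoter region (chr2:167537875-167538262, midpoint 0.126 kb before the start) ranked at 56.6, 87.6, 95.9 and 64.2 in EpH4 and 97.2, 52.3, 96.9 and 61.2 in EpRas. The replicates of each group lay far apart, and neither lines nor treatments separated. The region at +31.9 kb was called in 8 libraries too, with percentiles from 57.5 to 95.1.

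The *Snai1* region at +5.3 kb (chr2:167543190-167543759), whose midpoint lay 0.66 kb beyond the end of the gene, was the only one of the 40 in which all 4 TGF-β libraries ranked above all 4 untreated ones. Its percentiles were 13.6 and 9.6 in untreated EpH4, 95.1 and 93.4 in EpH4 with TGF-β, 69.9 and 7.2 in untreated EpRas, and 85.6 and 82.1 in EpRas with TGF-β. The treated libraries were thus higher in both lines, with EpRas untreated 1 nearest to them. The mean difference was 64.0 percentile points (exact permutation test over 70 assignments, two-sided, p = 0.0286, the smallest it can give, and adjusted p = 1 over all regions). Among all regions, 1.21% separated in this direction, and 1 of 40 is 2.5%. On the deposited score itself the difference was 15.65 and the groups remained apart. In the other direction 0 of 40 regions separated, against 0.145% of all.

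The *Snai1* region at +32.3 kb (chr2:167570371-167570631) was called in both untreated EpH4 libraries, at 62.2 and 70.4, and in 0 of 2 EpH4 libraries with TGF-β. It was called in EpRas untreated 1, at 61.2, and in no other EpRas library. It was the only region of the 40 lost with TGF-β in EpH4, where 1.68% of all regions were, and its neighbour at +31.9 kb was called in every library. The region at the *Spata2* promoter, 45.2 kb upstream of *Snai1*, ranked at 41.2, 25.6, 87.4 and 39.9 in EpH4 and at 33.4, 0, 22.3 and 0.4 in EpRas. The lines differed by -34.5 percentile points there and overlapped (exact permutation test, p = 0.0571, adjusted p = 0.669).

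**Figure D3:**
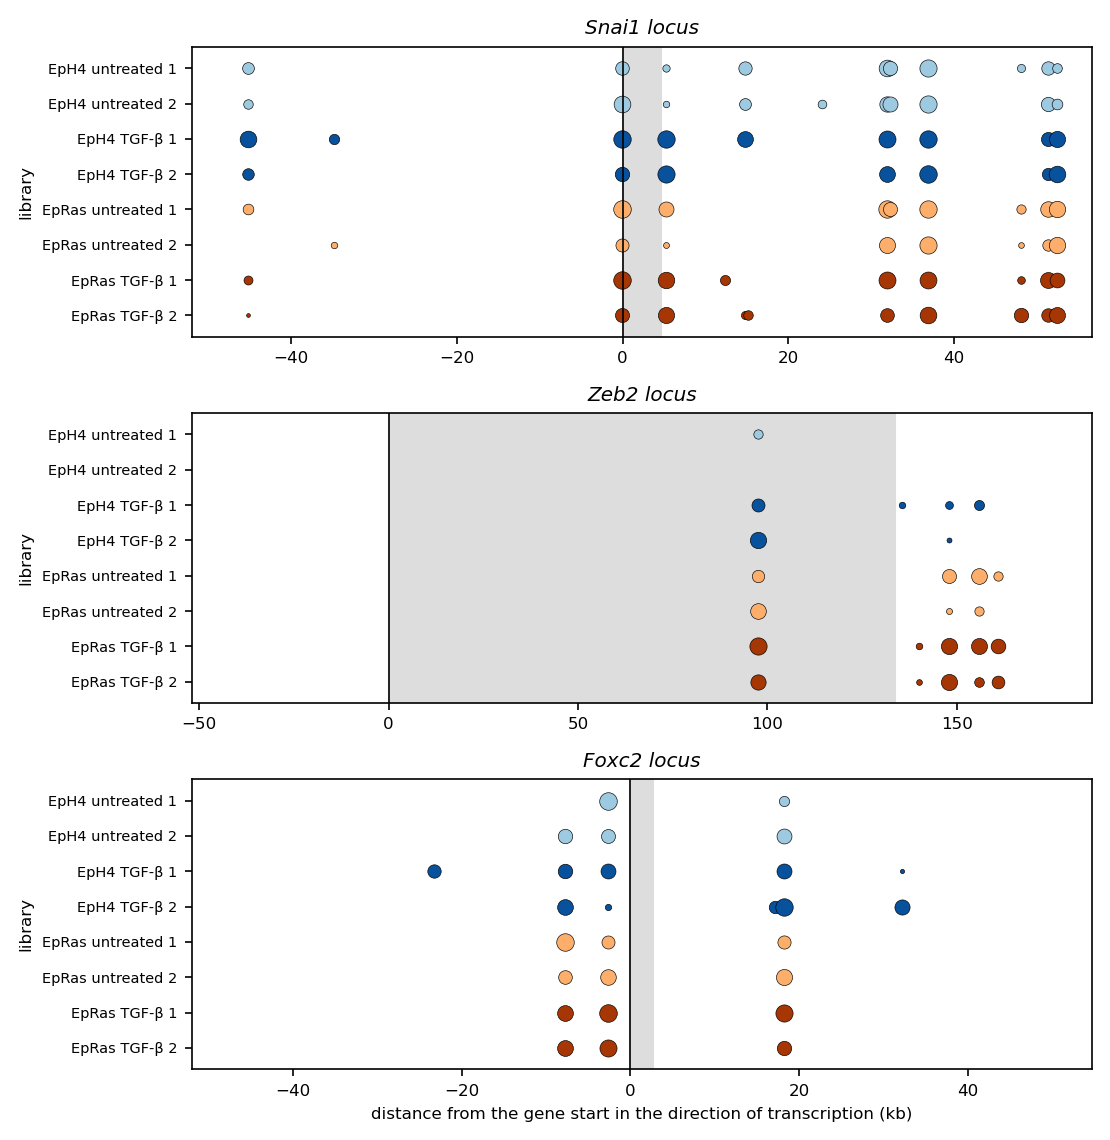
The horizontal axis is the distance from the start of *Snai1*, *Zeb2* or *Foxc2* in kb, with the gene shaded, each line of dots is a library coloured by group, and larger dots have higher percentiles. *Snai1* dots at +36.8 kb are large in all 8 libraries, while the *Zeb2* flank holds no dot in untreated EpH4.

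At *Snai2*, which encodes Slug, there was a single region, 4.33 kb upstream of the start (chr16:14701359-14701677). It was called in 6 libraries, with percentiles of 0, 69.8, 15.2 and 0 in EpH4 and 63.0, 12.7, 89.98 and 56.7 in EpRas. All 4 EpRas libraries had the call and 2 of 4 EpH4 libraries did, and the percentiles of the lines overlapped (difference 34.4, exact permutation test, p = 0.257, adjusted p = 0.965).

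*Zeb2* held 1, 0, 4 and 2 peaks in the EpH4 libraries and 4, 3, 5 and 5 in the EpRas libraries. Untreated EpH4 thus stood below the other 3 groups. Per 10000 peaks this was 1.22 ± 1.01 (SD, n = 4) in EpH4 and 2.33 ± 0.478 in EpRas, a difference of 1.10 that did not pass the exact permutation test (p = 0.143, adjusted p = 0.428). Within EpH4, the TGF-β libraries (2.23 and 1.85) lay above the untreated ones (0.802 and 0). Within EpRas the treated libraries (1.83 and 2.97) overlapped the untreated ones (2.32 and 2.18). The difference of the TGF-β effects between the lines was -1.49 (exact permutation test, p = 0.222, adjusted p = 1).

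Accessible chromatin at *Zeb2* lay in 1 intron region and in a group of regions beyond the end of the gene. The intron region at +97.6 kb (chr2:45019501-45020059) ranked at 24.4, 0, 51.6 and 83.3 in EpH4 and at 45.9, 76.3, 93.6 and 72.4 in EpRas. The groups overlapped across treatments (difference 38.6, exact permutation test, p = 0.0857, adjusted p = 1). The other 5 regions lay between 1.75 and 27.2 kb beyond the gene end, and 0 of these were called in untreated EpH4. Of the 40 regions 16 had no call in either untreated EpH4 library, as had 54.7% of all regions. The region at +148.0 kb (chr2:44969197-44969678) was called in 6 libraries, at 0, 0, 16.1 and 3.9 in EpH4 and 60.5, 7.7, 82.5 and 82.3 in EpRas. It was gained with TGF-β in EpH4 by the rule of both treated and 0 untreated libraries, and was already called in untreated EpRas. The lines differed by 53.2 percentile points there and overlapped (exact permutation test, p = 0.0571, adjusted p = 0.669). The regions at +156.0 and +160.9 kb were called in 4 and 3 of 4 EpRas libraries and in 1 and 0 of 4 EpH4 libraries. By percentile the lines overlapped at both (exact permutation test, p = 0.0857 and 0.143, adjusted p = 0.740 for each). The share of all regions with such calls was not determined. The region at +140.1 kb (chr2:44977175-44977474) was called in both EpRas TGF-β libraries alone, at the low percentiles of 10.1 and 6.5. It was 1 of 40 such regions (2.5%), against 4.21% of all regions. It was the only region of the 40 gained with TGF-β in EpRas, against 7.64% of all regions, and 0 were lost there, against 0.927%.

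The *Zeb1* locus held a single recurrent region, in an intron 148.6 kb from the start (chr18:5740153-5740800). It ranked at 20.7, 0, 79.0 and 94.8 in EpH4 and at 56.6, 77.9, 82.5 and 62.1 in EpRas. The TGF-β libraries were higher than the untreated ones within EpH4, and within EpRas they overlapped. Over both lines the difference was 40.8 (exact permutation test, p = 0.0571, adjusted p = 1). The intron regions of *Zeb1* and *Zeb2* thus both ranked lowest in untreated EpH4, where 1 of the 2 libraries had no call at either.

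No peak of any list fell in the *Twist1* locus. At *Twist2*, the intron region at +15.3 kb (chr1:91816469-91817054), was called in 7 libraries, at 40.7, 41.6, 63.3 and 0 in EpH4 and 78.1, 83.1, 95.7 and 39.8 in EpRas. The lines overlapped (difference 37.8, exact permutation test, p = 0.114, adjusted p = 0.740). The number of *Twist2* peaks was 1, 4, 1 and 0 in EpH4 and 1, 1, 2 and 1 in EpRas, so that EpH4 untreated 2 alone reached 4. Per 10000 peaks, TGF-β moved the locus by -1.65 in EpH4 and by 0.0096 in EpRas. The difference of the effects, 1.66, had an exact permutation p of 0.0556, which is the smallest that its 36 assignments allow (adjusted p = 1), and 3.27% of all loci reached it.

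At *Prrx1*, the main region lay in an intron at +21.6 kb (chr1:163291945-163292347) and was called in 7 libraries. It ranked at 0, 80.9, 83.0 and 71.2 in EpH4 and at 62.5, 50.0, 91.0 and 74.2 in EpRas. The missing call was in EpH4 untreated 1, and the treatments overlapped (difference 31.5, exact permutation test, p = 0.0857, adjusted p = 1). The locus held 1, 1, 2 and 1 peaks in EpH4 and 2, 2, 3 and 1 in EpRas.

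At *Hmga2*, the region in an intron at +54.3 kb (chr10:120421960-120422452) was called in all 8 libraries and was the only one of the 40 in which the lines separated by rank. Its percentiles were 92.0, 94.4, 88.7 and 86.4 in EpH4 and 37.2, 39.6, 85.0 and 50.2 in EpRas. All EpH4 libraries lay above all EpRas libraries, with EpRas TGF-β 1 close below them. The difference was -37.4 percentile points (exact permutation test, p = 0.0286, the smallest it can give, adjusted p = 0.463 over all regions), and 1.49% of all regions separated in this direction. The deposited scores of the same peaks were 24.8, 25.6, 26.6 and 19.5 in EpH4 and 13.5, 13.6, 32.5 and 16.1 in EpRas. The lines overlapped on that scale, since EpRas TGF-β 1, the longest list, had the highest score (difference -5.2, exact permutation test, p = 0.371). In the other direction, EpRas above EpH4, 0 of 40 regions separated, against 4.68% of all.

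At *Foxc2*, 2 regions were called in all libraries. The region at +18.2 kb (chr8:121134112-121134620) had the highest mean rank of the locus, at 30.4, 69.0, 69.7 and 95.7 in EpH4 and 53.0, 81.1, 92.9 and 64.0 in EpRas. The region 2.67 kb upstream of the start ranked at 97.4, 59.8, 69.2 and 8.8 in EpH4 and at 51.7, 75.8, 97.9 and 92.0 in EpRas. Neither separated the lines or the treatments. A region at +32.2 kb (chr8:121148257-121148532) was called in both EpH4 TGF-β libraries alone, at 1.6 and 71.3. It was 1 of 40 such regions (2.5%), against 0.860% of all regions. With *Zeb2* +148.0 kb it made 2 of 40 regions gained with TGF-β in EpH4 (5%), against 3.27% of all. The number of *Foxc2* peaks was 2, 3, 5 and 5 in EpH4 and 3 in each EpRas library. Per 10000 peaks the locus was higher with TGF-β in EpH4 by 1.76. In EpRas it changed by -0.520, which reflects list length alone, since each library held 3 peaks. The difference of the effects, -2.28, includes that change and had an exact permutation p of 0.167 (adjusted p = 1).

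Of the 9 loci, 0 had all libraries of one line above those of the other, where 12.2% of the 17752 protein-coding loci with a peak did (5.36% higher in EpRas, 6.88% higher in EpH4). By treatment 0 of the 9 separated, against 2.95% (1.05% higher with TGF-β, 1.9% lower). The smallest adjusted p over all loci was 0.233 for lines and 0.939 for treatments, so that 0 loci passed 0.05, while 2173 and 524 had an exact permutation p under 0.05 before adjustment. Since no p under 0.0286 was possible, many more loci would have had to reach it for any to pass. The median difference between the lines was 0.0088 peaks per 10000 over the 8 EMT factor loci with a peak and 0.0272 over all loci. Within EpH4 the treated libraries lay above the untreated ones at *Zeb2*, *Prrx1* and *Foxc2* (14.6% of all loci) and below them at *Snai1* and *Twist2* (15.3%). Within EpRas they lay below at *Prrx1* and *Hmga2* (16.3%) and above at none (13.4%). With numbers of peaks not divided by list length, the treatments overlapped at *Prrx1* in both lines and at *Twist2* in EpH4. On that scale *Zeb2* lay above within EpRas, with 5 and 5 peaks against 4 and 3. A comparison of 2 libraries with 2 allows no exact permutation p under 0.333. Of the other EMT-promoting loci, 1 of 12 separated the lines, *Foxq1*, with 1.46 ± 0.459 (SD, n = 4) in EpH4 and 0.658 ± 0.0816 in EpRas, an exact permutation p of 0.0286 and an adjusted p of 0.233. Of the epithelium-maintaining loci, 2 of 10 did, *Ovol1* lower (4.34 ± 0.671 against 2.26 ± 0.751) and *Gata3* higher in EpRas (0.139 ± 0.279 against 0.952 ± 0.258).

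No region of the 40 was called in all 4 libraries of one line and in none of the other, where 1.98% of all regions were called in EpRas only and 0.752% in EpH4 only. Likewise 0 of 40 were called in one treatment only (0.32% of all regions with TGF-β only and 0.0188% untreated only). By rank within EpH4, both treated libraries lay above both untreated ones in 9 of 40 regions (22.5%), against 8.32% of all regions. They were *Zeb1* +148.6 kb, *Zeb2* +97.6 and +148.0 kb, *Snai1* +5.3, +36.8 and +52.4 kb, and the *Foxc2* regions at +18.2 and +32.2 kb and at the *Mthfsd* promoter. Within EpRas this held for 7 of 40 (17.5%), against 18.5%. They were *Zeb2* +140.1, +148.0 and +160.9 kb, *Snai1* +5.3 kb, *Prrx1* +21.6 kb, *Hmga2* +54.3 kb and the *Foxc2* region upstream of the start. *Zeb2* +148.0 kb and *Snai1* +5.3 kb were in both sets. The reverse order held for 2 of 40 regions in each line, against 5.65% in EpH4 and 4.19% in EpRas. Regions of 1 locus share its surroundings and are not independent. A region needs a call in both libraries of 1 treatment to separate in this way. Of the 40 regions, 22.5% were called in all 8 libraries, against 11.4% of all regions. The part of this in the shares above was not tested.

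The surroundings of several loci differed between the lines, although 0 of the 9 loci themselves separated the lines. The 5 Mb on each side of *Zeb2* were counted with the locus left out. EpH4 libraries held 1.60 to 5.35 and EpRas libraries 6.53 to 8.41 peaks per 10000 there. The mean in EpRas was 2.12 times that in EpH4, a ratio that rests on few peaks. Around *Snai1*, on the same chromosome, the order was the opposite, with 109 to 128 in EpH4 and 70.2 to 79.8 in EpRas. *Twist1* lay in surroundings with 9.24 to 16.0 peaks per 10000 in EpH4 and 25.6 to 30.4 in EpRas. Those of *Snai2* were higher in EpH4 and those of *Prrx1* higher in EpRas, also without overlap. The lines overlapped around *Zeb1*, *Twist2*, *Hmga2* and *Foxc2*. Several whole chromosomes differed too in share of peaks, without overlap. Chromosome 12 (*Twist1*) held a mean of 1.78% in EpH4 and 3.27% in EpRas, and chromosome 2 (*Zeb2*, *Snai1*) 5.97% and 7.76%. Chromosome 16 (*Snai2*) held 3.91% and 2.90%, and chromosome 1 (*Prrx1*, *Twist2*) 7.38% and 7.87%. Only *Snai1* surroundings ran opposite to their chromosome. The chromosome of *Zeb1* also separated the lines. How many of all loci have such surroundings was not determined. The part of the surroundings in the values of the loci was not tested.

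**Figure D4:**
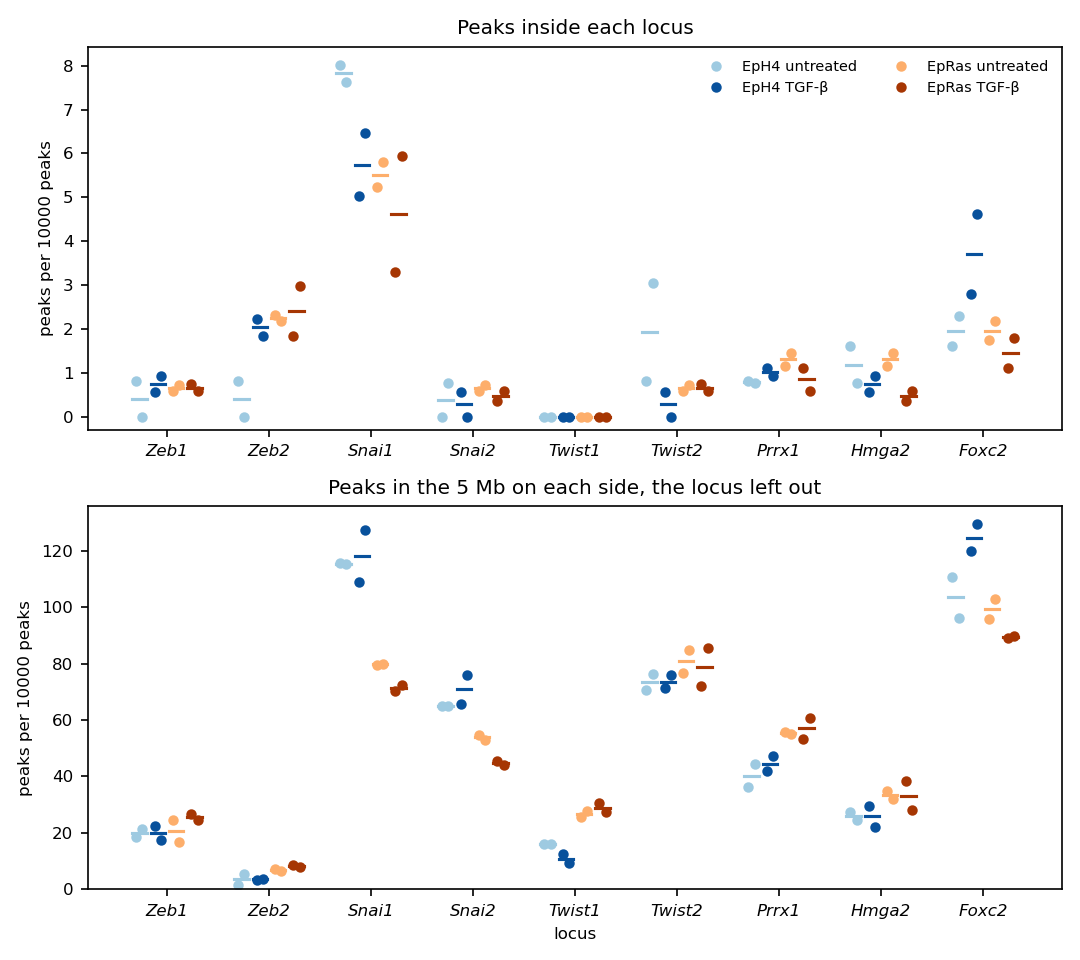
The upper panel gives peaks per 10000 peaks inside each of the 9 loci and the lower panel those in the 5 Mb on each side with the locus left out. Dots are libraries, coloured by group, and short bars are means of 2 libraries. At *Zeb2* untreated EpH4 is lowest in the upper panel, and in the lower panel *Zeb2*, *Snai1*, *Snai2*, *Twist1* and *Prrx1* show lines that do not overlap.

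The genes on other chromosomes whose peaks per 10000 followed those of a locus most closely over the 8 libraries were found for *Snai1*, *Zeb2* and *Foxc2*, the latter 2 being tied for second in number of regions. For *Zeb2* they were *Lrrk1* (Pearson r = 0.985), *Tnr* (0.952) and *Ptpre* (0.947), out of 5557 genes with at least as many regions. For *Foxc2* they were the neighbours *Cep19* and *Pigx* (both 0.984) and *Cd4* (0.960), out of 5589. For *Snai1* they were *Sipa1l3* (0.875), *Tns3* (0.856) and *Baiap2* (0.846), out of 352. The 8 points share list length, since every value is divided by it, and the genes are the closest of many candidates.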

How the data were processed

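FAIRE-seq peak lists of 8 libraries were used. The authors' methods describe sequencing on an Ion Proton instrument, alignment by Bowtie2 to the mm10 build and peak calling by MACS2 (version 2.0.9). The deposited lists, 1 per library, gave positions and a score whose meaning is not given in the sources used here. The score therefore served only for ranks and filters. Control and duplicate handling were likewise not given. The lists held no read counts, so depth was unknown. Peaks in the loci made up 9.51 to 15.7 per 10000 peaks (for 9.51, Wilson 95% interval 6.49 to 13.9, which covers counting error only).

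Gene spans and starts came from GENCODE vM21 (basic set), and sequences from RefSeq's GRCm38.p6, with 0 peaks beyond a chromosome end. Positions are 1-based. Peaks were assigned to loci and libraries by an overlap of 1 bp, and regions to classes by midpoint. Means of 4 against 4 libraries were compared by two-sided exact permutation tests over 70 assignments, with Benjamini-Hochberg adjustment over 17752 protein-coding loci or 37230 regions. With so few assignments no p under 0.0286 was possible. Effects of TGF-β were compared between lines by permuting line labels within treatments. Tests were checked on simulated data.

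Regions described singly were, by rule, the region of highest mean percentile in each locus and those that separated lines or treatments or were called in both libraries of 1 group alone. Further regions (at *Snai1* +31.9, +32.3 and -45.2 kb, *Zeb2* +148.0, +156.0 and +160.9 kb and *Foxc2* -2.67 kb) were named after their values were seen. Genes named as alike had the highest Pearson r. The genes and lists were chosen with earlier results of these data known. Alternatives were a stricter score limit, equal list lengths, other flank and promoter widths, an overlap of at least 50% of the peak, leaving out peaks near other genes' starts, undivided peak numbers, a wider motif window, a replicate block and leaving out each library. The deposited score and the comprehensive annotation were added after seeing the data. Python 3.11.15 with numpy 2.4.6 and scipy 1.17.1 was used.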

Additional observations from a re-analysis of the deposited data

Results flagged for a closer look

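In 1 locus (peaks per 10000) and 3 regions (percentile), both TGF-β libraries moved one way in EpRas and the opposite way in EpH4. Such opposite orders held for 3.93% of all loci and 1.66% of all regions. At the *Prrx1* locus, TGF-β changed the number of peaks per 10000 by -0.461 in EpRas and by 0.237 in EpH4, a difference of -0.698 (exact permutation test, p = 0.111, adjusted p = 1). With numbers of peaks not divided by list length the changes were 0 and 0.5 and the treatments separated in neither line. At the *Hmga2* intron region (+54.3 kb) the percentile changed by 29.2 in EpRas and by -5.67 in EpH4, a difference of 34.8 (exact permutation test, p = 0.333, adjusted p = 1). At *Snai1* +36.8 kb it changed by -5.36 and 2.75, a difference of -8.11 (exact permutation test, p = 0.111, adjusted p = 1). At *Snai1* +52.4 kb, within 2 kb of a start of *Gm11475*, the percentiles were 26.4 and 33.4 in untreated and 81.8 and 86.6 in treated EpH4, against 84.2 and 84.1 in untreated and 68.0 and 80.0 in treated EpRas. The difference of the effects was -64.4 (exact permutation test, p = 0.0556, adjusted p = 1). No p under 0.0556 was possible in this test. On the deposited score the opposite order held in none of the 3 regions. At *Snai1* +52.4 kb the EpRas scores were 23.3 and 21.8 untreated and 23.8 and 22.6 treated. At *Snai1* +36.8 kb they were 30.3 and 26.5 against 36.8 and 25.7. At the *Hmga2* intron the EpH4 scores were 24.8 and 25.6 untreated and 26.6 and 19.5 treated. Groups of 2 libraries are too small to single out a library.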

How the results depend on the processing

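Depth was unknown, so a missing call could not be told from a closed site, and none of the 8 EMT factor loci with a peak passed the adjusted test under any alternative (smallest adjusted p 0.217 over 256 recomputed values). Leaving out a library makes the rules of separation looser, since fewer libraries must lie apart.

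With the stricter score limit, 0 loci reached the smallest p for a difference of TGF-β effects (main value 1), 2 regions were gained or lost in EpRas (main 1) and 5 in EpH4 (main 3), 0 regions separated the lines by rank (main 1), promoters of other genes made up 17.8% of the peaks, and RUNX matched in 1 and the E-box in 7 regions. The *Hmga2* intron then differed by -54.8 between the lines (exact permutation p = 0.0571). The loci *Snai1* (TGF-β, 0.0503), *Twist2* (line, 0.572), *Prrx1* (line, -1.005, and TGF-β, 0.837) and *Hmga2* (TGF-β, 0.421) changed sign in peaks per 10000. With equal lists of 10821 peaks, 0 loci separated treatments within EpRas (main 2) and 2 within EpH4 (main 5), 0 had the smallest p for the difference of effects, 1 region was called in 1 line only (main 0), 1 was gained or lost in EpH4, 3 separated the lines by rank, gene bodies made up 26.7% and flanks 44.8%, and *Prrx1* changed sign (line -0.231, TGF-β 0.231).

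With 20 kb flanks, 1 locus separated treatments within EpRas and 3 within EpH4, 0 differed in the effects, 1 region was gained or lost in EpH4, the shares were 9.03% own promoters, 13.0% other promoters, 38.2% gene bodies and 39.7% flanks, AP1, ETS and RUNX matched in 11, 0 and 1 regions, and *Prrx1* changed sign (TGF-β 0.184). With 100 kb flanks, 1 locus separated the lines (*Twist1*, 0 peaks in EpH4 and a peak or more in each EpRas library, exact permutation test, adjusted p = 0.194), 1 the treatments (*Hmga2*, lower with TGF-β) and 1 the treatments within EpRas, 2 regions were called in 1 line only, 4 separated the lines by rank, gene bodies made up 15.6% and flanks 59.7%, AP1, ETS and RUNX matched in 27, 4 and 4 regions, and *Zeb1* (line, -0.0588), *Snai2* (TGF-β, 0.0013) and *Prrx1* (TGF-β, 0.320) changed sign. Without peaks near other genes' starts, 1 locus separated the lines (*Foxc2*, higher in EpH4), the shares of other promoters, gene bodies and flanks were 0, 30.1% and 62.9%, ETS matched in 1 region and *Zeb1* changed sign (line, -0.0045). With undivided numbers of peaks, 3 loci separated treatments within EpH4 (*Zeb2*, *Snai1* and *Foxc2*) and 0 differed in the effects. *Prrx1* (TGF-β, 0.25) and *Hmga2* (line, 0.25) then changed sign, and the line difference at *Snai1* was 0. With 1 kb promoters, other promoters made up 17.0% and flanks 53.2%. On the deposited score, 0 regions separated the lines and the *Hmga2* intron differed by -5.2. The cause of these shifts was not tested.

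Same-numbered replicates deviated together weakly in some pairs of groups (correlations over loci from -0.0687 to 0.202 in 6 pairs, 2 over 0.1). Those 2 were EpH4 TGF-β with EpRas TGF-β (0.202) and EpRas untreated with EpRas TGF-β (0.161). The numbers were not taken as pairs in the main tests. With the replicate block, whose smallest exact permutation p is 0.0556, the *Hmga2* intron differed by -37.4 and *Snai1* +5.3 kb by 64.0, both at that p, and *Zeb2* by 1.10 peaks per 10000 between the lines.

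Leaving out 1 library at a time, 0 to 1 loci separated the lines (1 without EpH4 untreated 1 or EpH4 TGF-β 1) and 0 to 1 the treatments (1 without EpH4 untreated 2 or EpH4 TGF-β 2). Within EpRas 2 to 8 loci separated (8 without EpRas TGF-β 2, 4 without each other EpRas library) and within EpH4 5 to 7, and 0 to 2 differed in the effects (2 without EpH4 untreated 1 or 2 or EpH4 TGF-β 2, 0 without EpRas untreated 2). Regions called in 1 line only were 0 to 1 (1 without EpH4 untreated 1, EpH4 TGF-β 1, EpRas untreated 2 or EpRas TGF-β 2) and in 1 treatment only 0 to 1 (1 without EpRas untreated 2). Regions gained or lost were 1 to 5 in EpRas (5 without untreated 1 or TGF-β 2, 4 without TGF-β 1, 3 without untreated 2) and 3 to 8 in EpH4 (8, 7, 6 and 7 without untreated 1 and 2 and TGF-β 1 and 2). By rank 1 to 4 regions separated the lines (4 without EpRas untreated 2, 1 without EpRas TGF-β 1, 2 or 3 without any other library) and 1 to 4 the treatments (4 without EpRas untreated 2, 2 without EpH4 untreated 2, EpRas untreated 1 or EpRas TGF-β 2). The *Hmga2* intron difference ran from -48.0 to -32.1 and that of *Snai1* +5.3 kb from 58.0 to 78.9. Signs changed for *Zeb1* (line -0.103 to 0.205, TGF-β -0.0011 to 0.266, below 0 without EpH4 untreated 2), *Twist2* (line -0.814 to 0.205, above 0 without EpH4 untreated 2), *Prrx1* (TGF-β -0.206 to 0.0234, above 0 without EpRas untreated 2 or TGF-β 2), *Hmga2* (line -0.255 to 0.145, above 0 without EpH4 untreated 1 or either EpRas TGF-β library) and *Foxc2* (TGF-β -0.0644 to 1.11, below 0 without EpH4 TGF-β 2). *Zeb2*, *Snai1* and *Snai2* (both comparisons), *Twist2* and *Hmga2* (TGF-β) and *Prrx1* and *Foxc2* (line) kept their direction whichever library was left out.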
